A study of Homo sapiens with 18 samples.

Results

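HuCCT1 replicate 2 was a pair of RNA-seq libraries, 1 with the RNF213 hairpin and 1 with the control hairpin, in which interferon-stimulated genes stood far above the other 4 libraries of the same cell line. These 2 of 18 libraries (2 of the 6 from HuCCT1) were chosen from the measured levels of interferon genes in this series. The levels and differences that set replicate 2 against replicates 1 and 3 are therefore given as a description, without a test. The tests below concern contrasts that did not choose the libraries. These are the difference between the arms, replicate 3 against replicate 1, and the same replicate number in the other lines.

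HuCCT1, YSCCC and KKU-100 are established cholangiocarcinoma lines, that is, lines from cancers of the bile duct epithelium. The HuCCT1 groups were an RNF213 knockdown line with the hairpin shRNF213#2 (called shRNF213 here) and a line with wild-type RNF213 and a control hairpin (shControl), 3 biological replicates each. All of these cells carried a stably integrated lentiviral hairpin, including the controls, and grew in RPMI-1640 with 10% fetal bovine serum and antimicrobial agents. YSCCC, grown in the same medium, and KKU-100, grown in Ham's F12, had the same 2 arms. The labels do not say whether each stable line was 1 clone or a pool, nor how the replicate cultures were handled.

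The 6 HuCCT1 libraries held 21897461 to 24799731 counts. Genes with at least 1 count numbered 22290 and 22342 in the shRNF213 and shControl libraries of replicate 2, against 22968 to 23170 in the other 4. The 9 epithelial markers, among them KRT7, KRT19 and EPCAM, had counts in every HuCCT1 library, and their summed level was 9850 and 9581 CPM (read counts scaled to a common library total, with TMM factors) in replicate 2, against 7223 to 8109 CPM. The 12 leukocyte markers summed to 100.3 and 104.8 CPM in replicate 2, against 45.6 to 66.3 CPM. Of that sum, 93.6 and 98.9 CPM came from CD68, a lysosomal membrane protein gene that epithelial cells also transcribe, while PTPRC, which encodes the pan-leukocyte antigen CD45, was at 0 and 0.0456 CPM. The part of these markers in the results was not tested. Genes that mark the other 2 lines had a median of 0.0472 to 0.0944 CPM in replicate 2, against 0.0598 and 0.121 CPM in replicates 1 and 3. In bulk RNA, a different share of responding cells and a different amount of RNA per cell cannot be told apart.

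Cells that sense viral or other foreign nucleic acid through cytosolic receptors transcribe type I interferons such as IFN-beta and type III interferons (the IFN-lambda family). The secreted interferons bind their own receptors on the same and on neighbouring cells, and the kinases JAK1 and TYK2 then activate STAT proteins, among them STAT2, which joins IRF9 in the transcription factor complex ISGF3. ISGF3 binds the interferon-stimulated response element in the promoters of antiviral genes, and epithelial cells respond strongly to the type III family.

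The core letters of that element are GAAANNGAAA on either strand. In the RefSeq windows (build GRCh38.p14) from 250 bases before to 50 bases after a gene's start, 1255 of 35116 windows (3.57%) held the core. The following 60-base stretches, written 5' to 3' on the gene's own strand, show it in genes whose levels are described below: an interferon ligand, 3 antiviral effectors, a ubiquitin-like modifier and, as the last, a gene outside the interferon lists. Capitals mark every match to the core or to its reverse complement TTTCNNTTTC.
IFNL1 (chr19:39296168-39296227, plus strand): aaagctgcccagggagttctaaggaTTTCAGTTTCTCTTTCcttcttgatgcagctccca
IFIT1 (chr10:89392482-89392541, plus strand): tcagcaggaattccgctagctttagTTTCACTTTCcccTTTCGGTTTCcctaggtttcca
IFI44L (chr1:78620259-78620318, plus strand): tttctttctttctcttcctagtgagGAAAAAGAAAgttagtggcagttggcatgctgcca
RSAD2 (chr2:6877607-6877666, plus strand): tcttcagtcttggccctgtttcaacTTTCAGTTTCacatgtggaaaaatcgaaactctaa
ISG15 (chr1:1013359-1013418, plus strand): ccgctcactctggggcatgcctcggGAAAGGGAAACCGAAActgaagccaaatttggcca
LGALS9 (chr17:27631154-27631213, plus strand): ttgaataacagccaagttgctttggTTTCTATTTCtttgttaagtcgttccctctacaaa
IFNL1 and ISG15 each had a pair of overlapping matches, and IFIT1 had a pair 3 bases apart. IFI44L had 2 matches in its window, of which only the first lies in the stretch shown. The first match began 214 bases upstream of the gene's start in IFNL1, 116 in IFIT1, 164 in IFI44L, 145 in RSAD2, 113 in ISG15 and 9 in LGALS9. Among lists with a window for at least 80% of their tested members, the core was present in 19 of the 29 matched antiviral effectors outside the IFIT, OAS and MX families, in 11 of 15 MHC class I and peptide-loading genes in 4 of 6 ligands, in 1 of 8 negative regulators and in 0 of 11 receptor and JAK-STAT genes. These counts take a gene once if any of its windows held the core, and the share over all tested genes with a window was 488 of 11753 (4.15%). The stretches shown were picked among genes with a match. IFNB1, DDX58, STAT2, IRF9, CMPK2, BATF2 and RNF213, also described below, had no core in their windows. A match is a description of letters and not evidence of binding.

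The antiviral effector genes were present at a several-fold higher level in both arms of replicate 2. The 56 genes of the IFIT, OAS and MX list, the ISG15 list and the list of other antiviral effectors summed to 18176 CPM in shRNF213 replicate 2 and 18398 CPM in shControl replicate 2. The same sum was 4116 and 4133 CPM in shRNF213 replicates 1 and 3, and 3685 and 4962 CPM in shControl replicates 1 and 3. The replicate 2 mean was 4.33-fold the mean of the other 4 libraries. The pair of replicate 2 libraries differed from each other by less than replicates 1 and 3 of shControl did, and by more than replicates 1 and 3 of shRNF213 did. All 11 interferon lists together (148 genes) took 29928 and 30183 CPM in replicate 2, against 10463 to 11799 CPM.

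**Figure D1:**
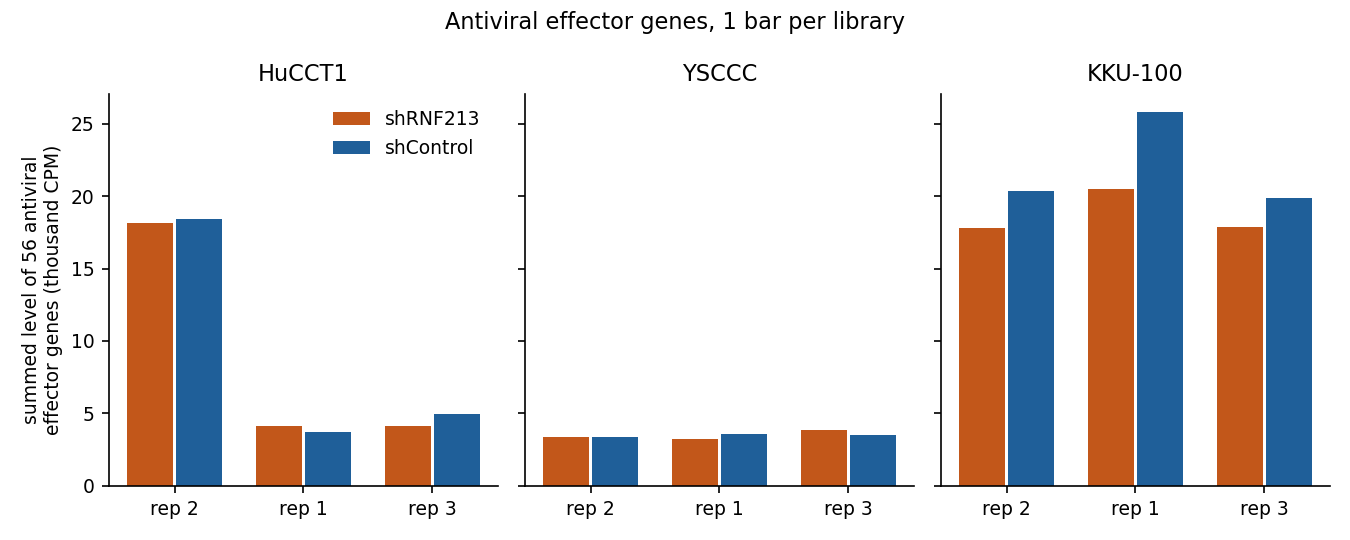
Summed level of the 56 antiviral effector genes (in units of 1000 CPM, linear axis from 0) in each of the 18 libraries, 1 panel per line, with shRNF213 (orange) left of shControl (blue). HuCCT1 replicate 2 reached 18176 and 18398 CPM, against 3685 to 4962 CPM in the other HuCCT1 libraries, and KKU-100 held 17818 to 25803 CPM in every replicate.

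Across all genes, edgeR's quasi-likelihood F test with the arm as covariate put 297 of 16254 genes (1.83%) under an adjusted p of 0.05. That threshold is used here only to sort genes by the size and evenness of their difference. Of these genes, 240 were higher (1.48%) and 57 were lower (0.351%) in replicate 2, and 91 of the 240 belonged to the interferon lists, of whose 144 tested genes none was called lower. The 148 list genes were assembled with earlier results on these libraries known, so their count is not independent evidence of a direction. The median log2 difference was 1.31 over the 144 interferon genes tested and -0.02 over all genes tested.

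The number of calls depended on the fit and on single libraries. With the replicate number as a block, 1963 genes (12.1%) were called, 1084 higher (6.67%) and 879 lower (5.41%), and these included all 297. The interferon lists then gave 108 higher and 2 lower genes. Without shControl replicate 1 the count was 678, without shRNF213 replicate 1 it was 152, without shControl replicate 2 it was 25, and without shRNF213 replicate 2 it was 0. In the last 2 fits a single library stood against 4, and 16 and 0 interferon genes were called. Levels themselves were less sensitive, and the median over the interferon genes stayed between 1.21 and 1.42 in those fits. As a plainer count, both replicate 2 libraries lay above all 4 others in 2374 genes (14.6%) and below all 4 in 2361 genes (14.5%). This held for 239 of the 240 genes called higher and for 54 of the 57 called lower.

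The type I and type III interferon transcripts themselves were among the genes that differed most, at low levels. IFNB1, the gene of IFN-beta, had 131 counts in shRNF213 replicate 2 and 173 in shControl replicate 2. In replicates 1 and 3 it had 2 and 0 counts in shRNF213 and 6 and 7 counts in shControl. The groups were far apart, with 304 counts over the 2 libraries of replicate 2 and 15 over the other 4.

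IFNL1, the gene of IFN-lambda 1, had 198 and 209 counts in the shRNF213 and shControl libraries of replicate 2. It had 3 and 2 counts in shRNF213 replicates 1 and 3, and 3 and 7 in shControl replicates 1 and 3. IFNL2 and IFNL3 are near-identical neighbours, so the division of reads between them is uncertain. IFNL2 had 195 counts over replicate 2 and 8 over the other 4 libraries, and IFNL3 had 152 against 7. No fold change is given for these genes, because single libraries of replicates 1 and 3 held as few as 0 counts.

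Not every interferon gene followed. IFNE, which encodes the epithelial type I interferon IFN-epsilon, had 2.59 and 2.51 CPM in replicate 2, against 6.04 and 10.3 CPM in replicate 1 and 2.39 and 3.15 CPM in replicate 3. The groups overlapped, and IFNE was called lower with the block only. IFNA1 stayed under 0.5 CPM and IFNK under 0.4 CPM in all 6 libraries. IFNG, the gene of the type II interferon of lymphocytes, was at 0 in both replicate 2 libraries and had counts in only 1 of the other 4.

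None of the receptor chains and kinases was called, while the ISGF3 components STAT2 and IRF9 were higher in replicate 2. IFNAR1, a chain of the type I receptor, had 84.6 and 79.4 CPM in replicate 2, against 73.2 to 86.0 CPM. IFNLR1, the specific chain of the type III receptor, had 24.7 and 21.1 CPM, against 15.1 to 19.7 CPM, without overlap (log2 0.31 ± 0.14, SE). None of IFNAR1, IFNAR2, IFNLR1, IL10RB, IFNGR1, IFNGR2, JAK1, JAK2, TYK2 and STAT3 was called in either direction, with or without the block, and they had log2 differences between -0.26 and 0.32.

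IRF9 had 98.3 CPM in shRNF213 replicate 2 and 101 CPM in shControl replicate 2. The other libraries held 24.6 and 14.5 CPM (shRNF213 replicates 1 and 3) and 22.7 and 24.4 CPM (shControl replicates 1 and 3), so the groups did not overlap, and the log2 difference was 2.21 ± 0.19 (SE, 2 against 4 libraries). STAT2 had 184 and 229 CPM, against 81.8 to 86.1 CPM (log2 1.29 ± 0.11, SE).

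Of 14 nucleic acid sensors and adaptors, 10 were called higher and none lower, or 11 higher with the block. For the list counts in this and the following paragraphs, the shares over all genes were 1.48% higher and 0.351% lower. With the block they were 6.67% higher and 5.41% lower. DDX58, which encodes the RNA sensor RIG-I, had 258 and 312 CPM in replicate 2, against 40.1 to 64.0 CPM in the other libraries (log2 2.54 ± 0.17, SE). IFIH1, which encodes the long-RNA sensor MDA5, had 157 and 166 CPM, against 25.3 to 33.3 CPM (log2 2.51 ± 0.12, SE). ZBP1, a sensor of Z-form nucleic acid linked to necroptosis, had 75.5 and 82.8 CPM, against 5.06 to 7.91 CPM (log2 3.64 ± 0.15, SE). In each of the 3 genes both arms of replicate 2 lay above every other library, which the choice of these genes required.

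On the DNA side, AIM2 (log2 3.34 ± 0.23, SE), IFI16 (1.71 ± 0.11) and TMEM173, which encodes the adaptor STING (1.58 ± 0.17), were also called higher. The RNA-activated kinase gene EIF2AK2 had a log2 difference of 1.62 ± 0.17 and DHX58, a regulator of RIG-I signalling, one of 2.17 ± 0.15. MAVS, the mitochondrial adaptor below RIG-I and MDA5, had 223 and 272 CPM, against 263 to 275 CPM. CGAS, the cytosolic DNA sensor, had 26.2 and 24.8 CPM, against 24.0 to 30.2 CPM, and neither MAVS nor CGAS was called.

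Among the interferon regulatory factors, IRF7, which drives the amplification of interferon transcription, had 282 and 223 CPM in replicate 2, against 43.1 to 55.5 CPM (log2 2.31 ± 0.14, SE). IRF1, a factor of both interferon and IFN-gamma responses, was also called higher (log2 0.82 ± 0.14). The list of 6 tested factors held 3 higher calls, or 4 with the block, and none lower. IRF3, which is activated by phosphorylation and is present before infection, had 94.3 and 78.9 CPM, against 78.0 to 86.9 CPM. Its groups overlapped.

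The effector families showed the steepest differences at substantial levels. Of the IFIT, OAS and MX list 10 of 11 members were called higher, and 32 of 34 other antiviral effectors, or 10 and 34 with the block. MX1, a dynamin-like GTPase that blocks viral ribonucleoproteins, had 842 and 846 CPM in replicate 2. It had 32.4 and 30.3 CPM in shRNF213 replicates 1 and 3, and 24.6 and 71.0 CPM in shControl replicates 1 and 3. The fitted ratio was 21.9-fold (log2 4.46 ± 0.37, SE), and shControl replicate 3 was the highest of the 4 lower libraries.

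The paralog MX2, which restricts retroviruses, had 356 and 376 CPM in replicate 2, against 5.77 to 24.0 CPM (log2 5.15 ± 0.49, SE). OAS2, an oligoadenylate synthetase activated by double-stranded RNA, had 602 and 668 CPM, against 25.8 to 58.5 CPM (log2 4.14 ± 0.29). IFIT1, which binds RNA without 2'-O methylation at its cap, had 689 and 839 CPM, against 32.1 to 98.1 CPM (log2 3.78 ± 0.37). In all 3 genes shControl replicate 3 was again the highest of the libraries outside replicate 2.

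RSAD2, which encodes the antiviral enzyme viperin, had 105 and 119 CPM in replicate 2. It had 1.92 and 1.11 CPM in shRNF213 replicates 1 and 3, and 1.28 and 4.47 CPM in shControl replicates 1 and 3 (log2 5.72 ± 0.40, SE). CMPK2, its genomic neighbour and a mitochondrial nucleotide kinase gene, had a log2 difference of 5.38 ± 0.46, and IFI44L one of 5.42 ± 0.44. IFI6, an inhibitor of apoptosis and flavivirus replication, had 631 and 435 CPM, against 19.3 to 43.3 CPM. Per transcript length, from the deposited TPM, IFI6 was at 1457 and 1069 TPM in replicate 2 and ISG15 at 1796 and 1369 TPM, the same order of level as HLA-B with 1589 and 1454 TPM.

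ISG15 encodes the ubiquitin-like modifier that effectors such as HERC5 attach to proteins and USP18 removes. It had 598 and 424 CPM in replicate 2, against 52.2 to 78.2 CPM (log2 2.90 ± 0.17, SE). USP18, also a brake on the type I receptor, had 54.4 and 66.7 CPM, against 3.77 to 7.95 CPM (log2 3.61 ± 0.24). Of 11 ISG15 conjugation and poly-ADP-ribose genes 10 were called higher, with UBE2L6 (log2 1.84), PARP9 (2.51) and PARP14 (2.11) among them, and UBA7, the ISG15-activating enzyme, was called with the replicate block only (0.67).

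**Figure D2:**
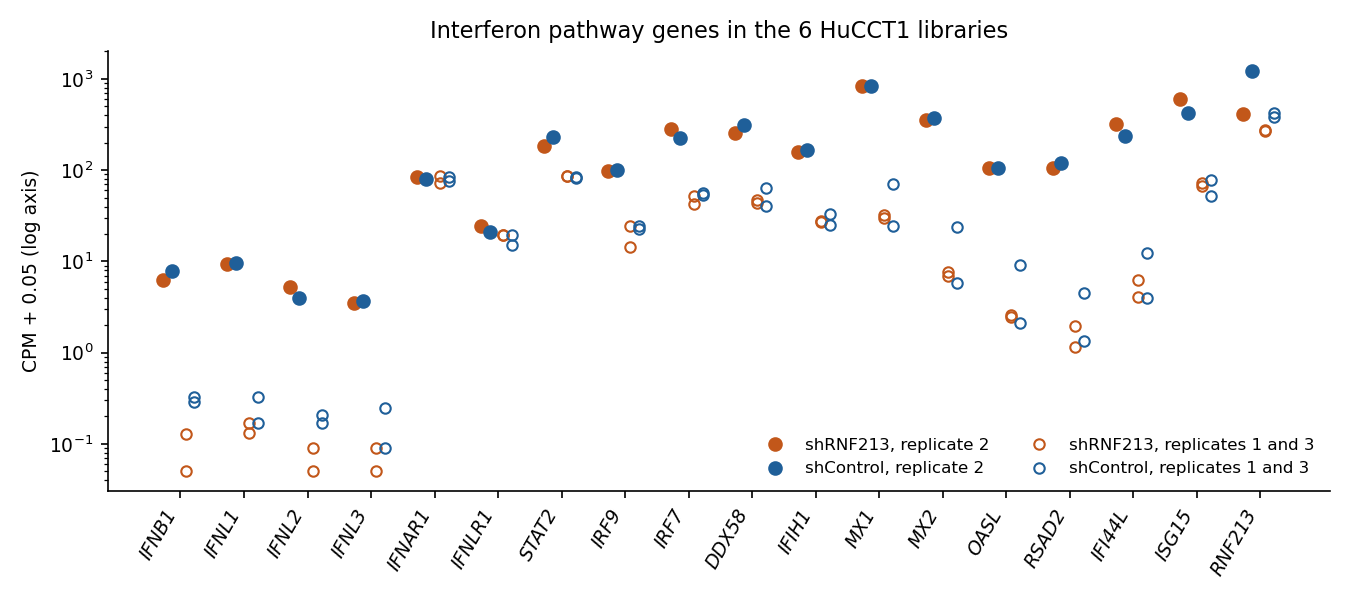
CPM plus 0.05 on a log axis for interferon ligands, receptors, signal transducers, sensors and effectors in the 6 HuCCT1 libraries, with replicate 2 as filled and replicates 1 and 3 as open circles, shRNF213 in orange and shControl in blue. IFNAR1 and IFNLR1 lie close together in all libraries, while RSAD2 separates at 105 and 119 CPM against 1.11 to 4.47 CPM.

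RNF213 (chr17:80260866-80398786 in the files' build GRCh38), the hairpin's target, encodes a giant ubiquitin ligase with ATPase modules that takes part in antimicrobial defence and is interferon-inducible in several cell types. It had 415 CPM in shRNF213 replicate 2 and 1229 CPM in shControl replicate 2. In replicates 1 and 3 it had 271 and 278 CPM with shRNF213, and 386 and 421 CPM with shControl. In all 3 lines each shRNF213 library had less RNF213 than the shControl library of the same number. Replicate 2 was thus 1.51-fold the mean of the other 2 cultures with shRNF213 and 3.04-fold with shControl. With the RNF213 hairpin, the replicate 2 level fell within the range of shControl replicates 1 and 3. The difference between the arms in this effect was -1.01 ± 0.20 on the log2 scale (SE). In edgeR's quasi-likelihood test of the arm by replicate 2 interaction it had an adjusted p of 1.00, and with the replicate block the adjusted p was 0.000271, in a fit that leaves 1 residual degree of freedom.

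Antigen presentation by MHC class I was higher by a smaller factor. The 18 genes of this list summed to 5424 and 4976 CPM in replicate 2, against 2722 to 3162 CPM. All 18 had a positive log2 difference, and 10 were called, or 16 with the replicate block. HLA-B had 1004 and 851 CPM in replicate 2, against 341 to 538 CPM (log2 1.04 ± 0.19, SE), and reads may be divided unevenly among the HLA genes because they are alike in sequence. TAP1, the peptide transporter, had 165 and 179 CPM, against 45.3 to 55.1 CPM (log2 1.82 ± 0.11), and the immunoproteasome gene PSMB9 a log2 difference of 1.19 ± 0.09. B2M, the shared light chain, had one of 0.68 ± 0.11.

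Genes that respond mainly to IFN-gamma were mixed. Among 12 such genes 4 were called higher, or 8 higher and 1 lower with the replicate block. GBP4, a guanylate-binding protein, had 43.7 and 53.2 CPM in replicate 2, against 6.13 to 11.4 CPM (log2 2.62 ± 0.22, SE), and GBP1 a log2 difference of 1.20 ± 0.19. GBP2 (-0.18) and the class II transactivator gene CIITA (0.21) were not called. ICAM1, an adhesion molecule gene under NF-kappaB control, was lower with the block only (-0.40).

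Of the 9 tested chemokines and ligands linked to interferon, 4 were called higher, or 5 with the block. CXCL10, which attracts activated T cells, had 5.28 and 7.35 CPM in replicate 2, against 0.235 to 0.759 CPM (log2 4.06 ± 0.38, SE). CCL5, a chemokine for T cells and monocytes, had 12.7 and 11.5 CPM, against 0.288 to 1.56 CPM (4.21 ± 0.48). TNFSF10, the gene of the death ligand TRAIL, had 116 and 102 CPM, against 7.17 to 23.0 CPM (2.90 ± 0.37). CD274, which encodes the checkpoint ligand PD-L1, had 89.8 and 103 CPM, against 148 and 192 CPM in replicate 1 and 71.8 and 86.3 CPM in replicate 3, and was not called. Among 10 negative regulators of the pathway 1 was called, SOCS1 (2.17 ± 0.32), at 2.5 and 2.78 CPM in replicate 2, against 0.329 to 0.799 CPM. With the block SOCS3 was called as well (0.47).

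Of the genes called higher, 149 lay outside the interferon lists and 137 were in none of the gene lists examined. Lying outside the lists does not place a gene outside the interferon response, and its part in that response was not tested. Of these 149 genes 107 had a promoter window, and 17 of the 107 (15.9%) held the core letters of the response element. The share over all tested genes with a window was 488 of 11753 (4.15%). LAMP3, a lysosomal glycoprotein of mature dendritic cells, had 98.7 and 101 CPM in replicate 2, against 7.33 to 13.7 CPM (log2 3.33 ± 0.17, SE). LGALS9, the gene of galectin-9, a ligand of immune inhibitory receptors, had 303 and 253 CPM, against 36.2 to 52.1 CPM (2.65 ± 0.16). BATF2, a basic leucine zipper factor of activated macrophages, had 29.8 and 34.9 CPM, against 2.72 to 4.72 CPM (3.11 ± 0.17).

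SLC15A3, a lysosomal transporter of bacterial peptides, had 79.5 and 92.3 CPM, against 11.1 to 17.0 CPM (log2 2.54 ± 0.14, SE). The ETS-family repressor gene ETV7 was at 17.4 and 14.5 CPM, against 1.32 to 2.24 CPM (3.19 ± 0.24). TYMP, a thymidine-degrading enzyme with angiogenic activity, had a log2 difference of 2.04 ± 0.15, and LAP3, an aminopeptidase gene, one of 1.57 ± 0.18. SHFL, which blocks programmed ribosomal frameshifting of viral RNA, had one of 1.56 ± 0.17.

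CTSE, an intracellular aspartic protease of gastrointestinal epithelium, had 16.8 and 25.5 CPM in replicate 2, against 2.80 to 5.57 CPM (log2 2.35 ± 0.30, SE). ASS1, the arginine synthesis enzyme argininosuccinate synthase, had 338 and 198 CPM, against 55.3 to 110 CPM (1.60 ± 0.29). CEACAM1, a homophilic adhesion receptor of epithelial and immune cells, had 10.6 and 9.81 CPM, against 2.59 to 3.02 CPM (1.82 ± 0.18). The transcription factor gene ONECUT3 had 18.9 and 12.1 CPM, against 3.20 to 5.93 CPM (1.74 ± 0.16). The remaining genes of this rank, TRANK1, HSH2D, ODF3B, TRIM69, THEMIS2, PLEKHA4, PRR15 and ZCCHC2, had log2 differences of 1.55 to 2.23, and the choice of these genes required both replicate 2 libraries to lie above the other 4.

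The 57 genes called lower belonged to none of the interferon lists, and 49 of them to no list. IL11 (chr19:55364382-55370463), a cytokine of the IL-6 family that promotes fibrosis, stood first among those with a mean of at least 5 CPM. It had 6.89 and 2.14 CPM in replicate 2. It had 37.0 and 46.1 CPM in shRNF213 replicates 1 and 3, and 22.8 and 25.2 CPM in shControl replicates 1 and 3, a 7.81-fold lower fitted level (log2 -2.96 ± 0.24, SE). CEMIP, which takes part in hyaluronan breakdown, had 13.6 and 18.8 CPM, against 59.5 to 81.9 CPM, or 4.45-fold lower (-2.16 ± 0.12).

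PEG10, an imprinted gene derived from a retrotransposon and the 1 called member of the endogenous retroviral host genes, was the most abundant of the 20 lower genes, with 255 and 219 CPM in replicate 2, against 559 to 709 CPM (log2 -1.39 ± 0.10, SE). MYL9, a regulatory light chain of smooth muscle and non-muscle myosin, had 5.94 and 4.47 CPM, against 11 to 16.8 CPM (-1.32 ± 0.23). MYLK, the kinase of such light chains, had 30.4 and 36.9 CPM, against 59.5 to 85.3 CPM (-1.10 ± 0.19). COL12A1, a fibril-associated collagen gene, had 51.4 and 53.3 CPM, against 88.6 to 138 CPM (-1.06 ± 0.17), and P3H2, a collagen prolyl 3-hydroxylase gene, had a log2 difference of -1.18 ± 0.21.

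Among the other lower genes were SPOCK1, a testican proteoglycan gene (log2 -1.42 ± 0.26, SE), ARNT2, a partner of basic helix-loop-helix PAS factors (-1.38 ± 0.15), VIPR1, the receptor of vasoactive intestinal peptide (-1.49 ± 0.27), and PPME1, the phosphatase PP2A methylesterase (-1.01 ± 0.15). LTB, the lymphotoxin beta gene, had 3.82 and 2.92 CPM, against 7.04 to 9.97 CPM (-1.28 ± 0.23). HOXB-AS3 and RASSF8-AS1 are antisense transcripts and MIR31HG hosts a microRNA. Without a known strand setting, reads of antisense genes and of their partners cannot be told apart, and the same holds for RNF213 and its antisense neighbour.

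**Figure D3:**
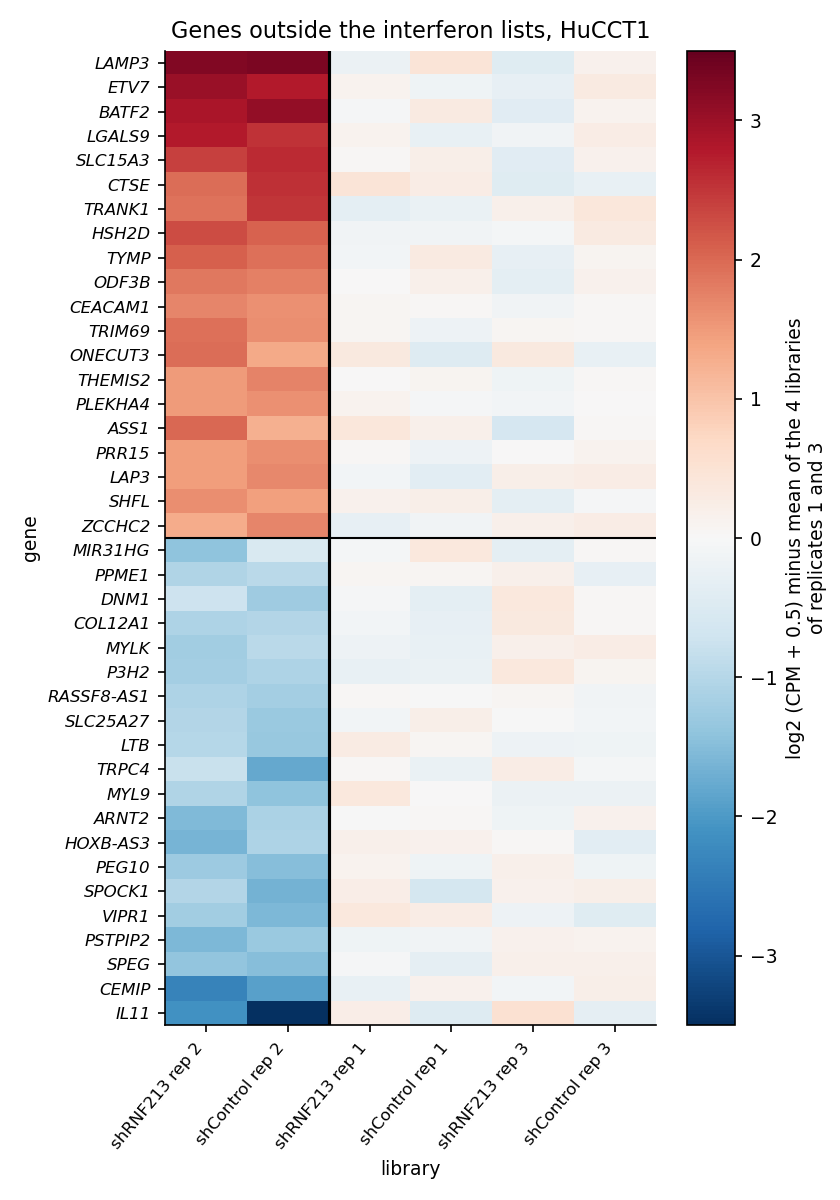
Heat map of the 20 genes with the largest higher (above the line) and the 20 with the largest lower (below it) difference outside the interferon lists, in the 6 HuCCT1 libraries, with the replicate 2 libraries on the left. Colour gives log2 (CPM + 0.5) minus the mean of the 4 libraries of replicates 1 and 3, from blue (lower) to red (higher), and LAMP3 and IL11 mark the ends.

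Epithelial lists had positive medians with few calls. For the list counts with the block from here on, the shares over all genes were 6.67% higher and 5.41% lower. Genes named in this and the next 3 paragraphs without a call in the fit were chosen after their values were seen. The 14 tested keratins had a median log2 difference of 0.52, 13 of them positive, with 1 called, or 7 higher and none lower with the replicate block. The median of the same list was 0.15 for replicate 3 against replicate 1. KRT81 was the keratin called without the block, at 2375 and 2272 CPM in replicate 2, against 1447 to 1618 CPM (log2 0.59 ± 0.09, SE). KRT7, a keratin of bile duct epithelium, had 2544 and 2564 CPM, against 1919 to 2100 CPM (0.35 ± 0.09), and was called with the block only.

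Of 31 epithelial junction genes 2 were called higher, or 12 higher and 3 lower with the block. Their median was 0.28, close to the 0.22 of replicate 3 against replicate 1. CLDN4, a tight junction claudin, had 340 and 333 CPM in replicate 2, against 119 to 172 CPM (log2 1.21 ± 0.16, SE). CLDN7 had 342 and 306 CPM, against 205 to 224 CPM (0.58 ± 0.10). CLDN2, the claudin of leaky epithelia, went the other way with 2.92 and 2.01 CPM, against 3.88 to 22.6 CPM, and was called lower with the block only.

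Of 28 mucin, trefoil and biliary genes 2 were called higher, or 11 higher and 2 lower with the block, at a median of 0.32, against 0.12 for replicate 3 over replicate 1. CEACAM1, described above, was among them. MUC4, a membrane mucin, had 187 and 183 CPM, against 86.6 and 82.7 CPM in replicate 1 and 22.4 and 29.4 CPM in replicate 3, a split between replicates 1 and 3 that goes with a wide error (log2 1.74 ± 0.53, SE). Of 24 integrins and laminins 1 was called higher, or 7 higher and 2 lower with the block. That 1 was LAMA3, a subunit of laminin-332 in the epithelial basement membrane, with 1046 and 999 CPM, against 508 to 626 CPM (0.83 ± 0.11).

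Of 24 matrix proteases and inhibitors 2 were called higher, or 7 higher and 1 lower with the block: PLAUR, the urokinase receptor (log2 0.92 ± 0.15, SE), and the lysosomal protease CTSS (0.91 ± 0.16). Other called list members were the EGFR ligand gene TGFA (0.62 ± 0.11), S100A14 (0.76 ± 0.13), the Notch-linked repressor HES4 (0.80 ± 0.12) and complement factor CFB (1.17 ± 0.20). Lower were AJUBA, a LIM protein of the YAP target list (-0.65 ± 0.12), the neuron-type enolase ENO2 (-0.71 ± 0.10), the acute-phase gene SAA2 (-0.84 ± 0.14) and the neutrophil chemokine CXCL5 (-0.83 ± 0.15). In CXCL5 and ENO2 the level also followed the arm, and the replicate 2 library with shRNF213 did not lie below both shControl libraries of replicates 1 and 3. MT1G, a metallothionein gene at low level, had 2 counts in each library of replicate 2, against 23 to 31 counts.

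The cell cycle list had a negative median. None of its 40 genes was called, 34 had a negative log2 difference and the median was -0.25. With the block 11 were called lower and none higher. Outside the list, some genes of mitosis, named after their values were seen, were among the 57 called lower. They included HJURP, the chaperone of the centromeric histone (log2 -0.86 ± 0.10, SE), the kinesin gene KIF14 (-0.70 ± 0.12) and KNSTRN, a spindle protein gene (-0.67 ± 0.11). The proliferation marker MKI67 had 418 and 627 CPM in replicate 2, against 672 and 642 CPM in replicate 1 and 934 and 881 CPM in replicate 3 (log2 -0.60 ± 0.22, SE). Replicate 3 lay well above replicate 1, and the median of the list in replicate 3 against replicate 1 was 0.50, larger than the difference of replicate 2. Of 20 mesenchymal genes 1 was called lower (MYL9), or 2 higher and 5 lower with the block. Among those 5 was VIM, the gene of vimentin, at 99.2 and 75.3 CPM, against 115 to 147 CPM (-0.63 ± 0.14).

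Metabolic and stress lists held few calls. Of 25 cholesterol synthesis and uptake genes none was called, or 8 higher with the block, at a median of 0.27 with 21 positive, and the median was 0.42 for replicate 3 against replicate 1. By arm, the median of the cholesterol list in replicate 2 was 0.06 in shRNF213 and 0.54 in shControl. Of 22 endoplasmic reticulum chaperone genes none was called, or 6 higher with the block (median 0.17). The 13 mitochondrially encoded genes had a median of 0.19, with 11 positive and none called, and the median was 0.33 in shRNF213 and -0.01 in shControl. Hypoxia, p53, NRF2, ribosome biogenesis and nuclear respiratory chain lists had medians between -0.05 and 0.11, with ENO2 as their 1 called gene without the block. With it, the hypoxia and p53 lists each held 3 higher and 1 lower calls, the NRF2 list held 2 and 1, and the remaining lists held none. These counts stand beside 6.67% of all genes called higher and 5.41% called lower with the block. The 7 metallothioneins, of which MT1G was called, all had a negative log2 difference, at a median of -0.45, and their median was -0.32 for replicate 3 against replicate 1. The NF-kappaB list, to which IFNB1 is linked through its enhancer, had 1 higher and 3 lower calls among 27 genes, or 4 and 4 with the block, and a median of -0.18. That median was 0.03 in shRNF213 and -0.36 in shControl.

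**Figure D4:**
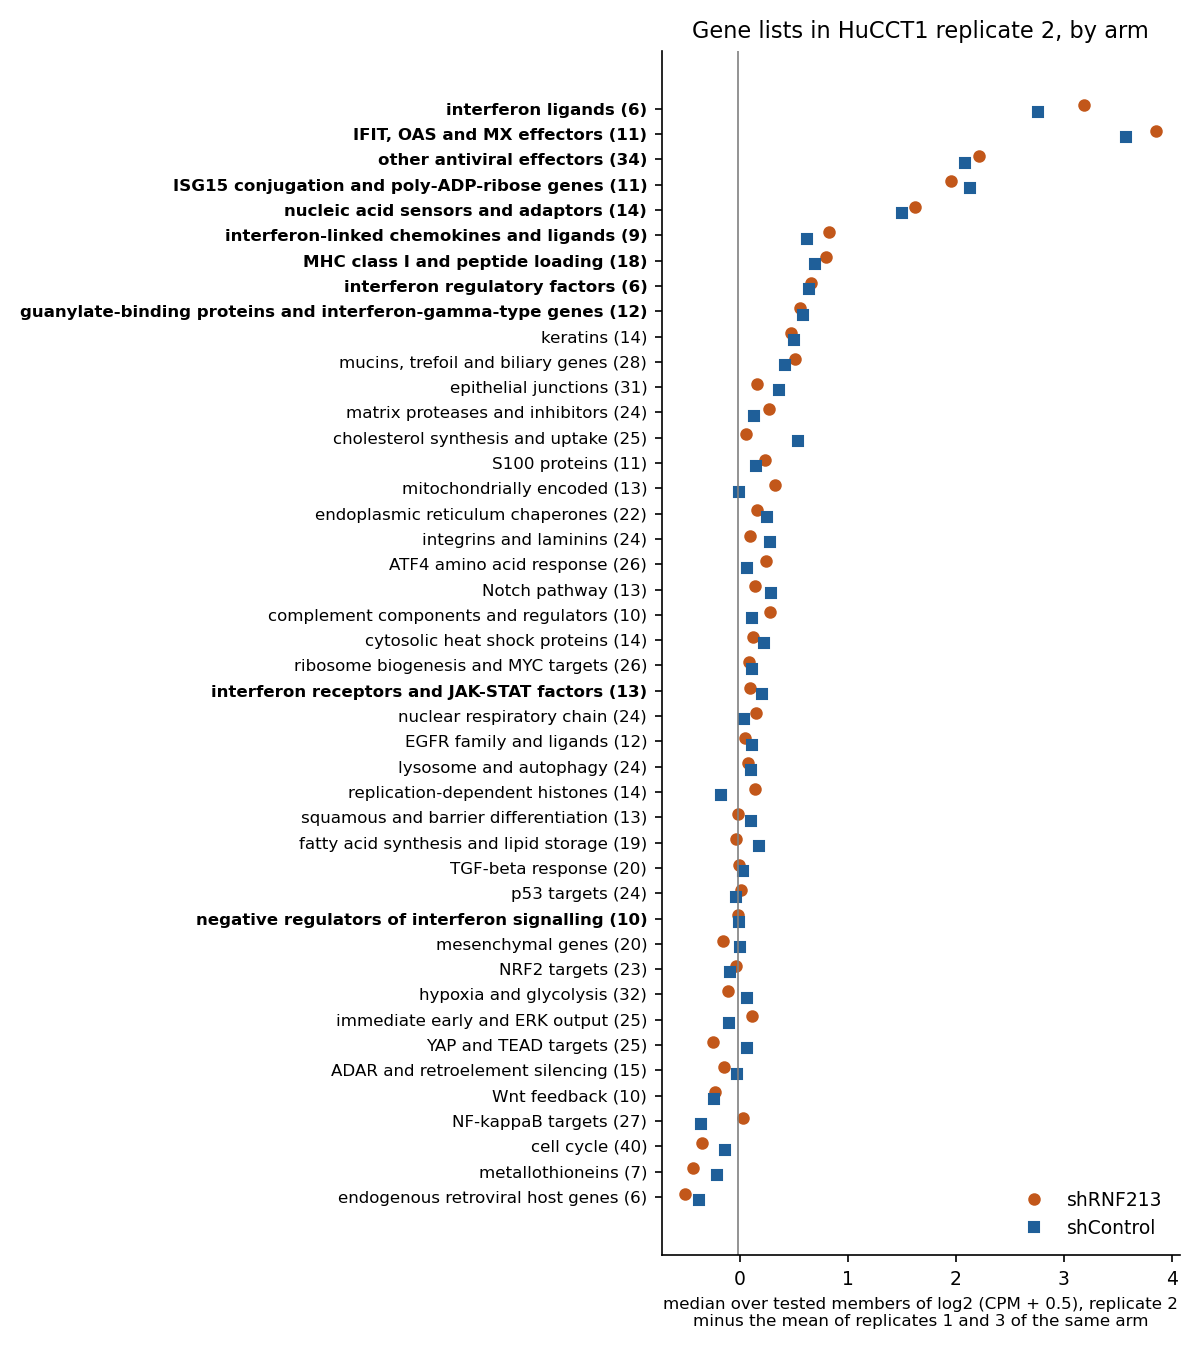
Median over tested members of log2 (CPM + 0.5) in replicate 2 minus the mean of replicates 1 and 3 of the same arm, for each gene list, with the number of tested members in brackets and interferon lists in bold; circles are shRNF213, squares shControl, and the grey line is the median of all genes. The first 9 lists are interferon lists, and the receptor list and the negative regulators lie near the line.

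The state was present in both arms. Across the 11272 genes that averaged 5 CPM or more, the replicate 2 difference in shRNF213 and that in shControl had a correlation of 0.717, and of 0.613 across 11145 of them outside the interferon lists. Agreement of this size was not particular to replicate 2. Deviations from the arm means correlated between the arms at 0.79 for replicate 1, 0.717 for replicate 2 and 0.766 for replicate 3. Genes are not independent replicates, and each arm's difference rests on 1 against 2 libraries, so these values describe the agreement and are not tested. The test of the difference between arms, edgeR's quasi-likelihood interaction of arm and replicate 2, called 0 of 16992 genes (0%). Each arm has only 1 library of replicate 2 in that fit, so 0 calls cannot show that the arms did not differ. At an unadjusted p under 0.05 the test held 287 genes (1.69%). DESeq2 and limma-voom called 0, and the fit with the replicate block called 522. Of those 522, 164 were higher with shRNF213 and 358 lower. Among 145 interferon genes tested, 1 had an unadjusted p under 0.05. It was IFNL2, whose test rests on 0 and 1 counts in shRNF213 replicates 1 and 3, so its size is not given. With the block 2 were called, HLA-F and PSME2.

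**Figure D5:**
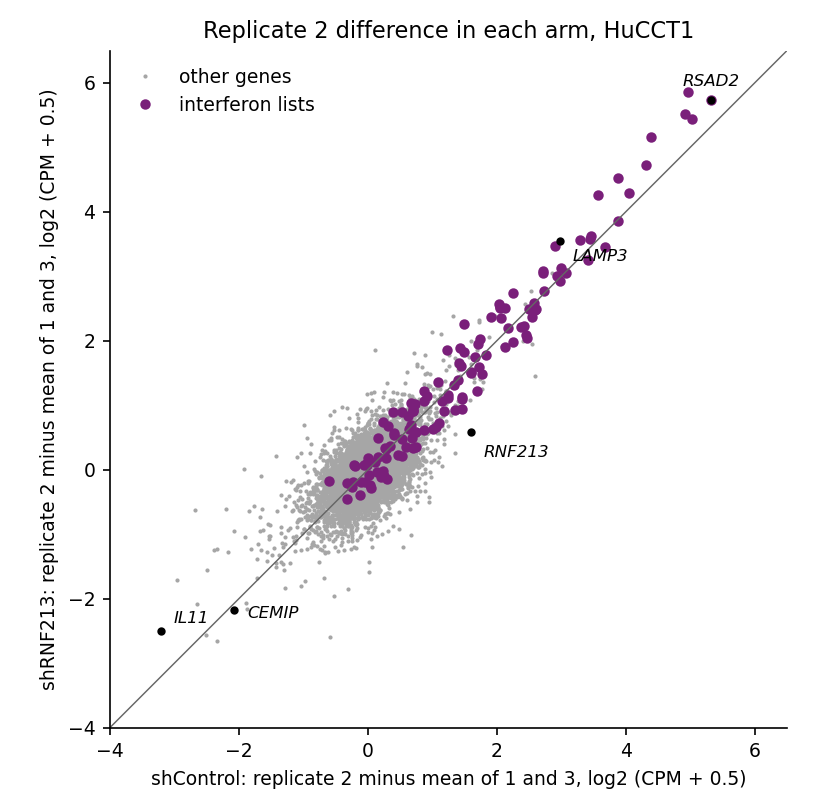
Replicate 2 minus the mean of replicates 1 and 3 in log2 (CPM + 0.5), shRNF213 (vertical) against shControl (horizontal), for 11272 genes (grey) with the interferon lists in purple and the line of equality. RNF213 lies below the line, RSAD2 and LAMP3 are high in both arms, and IL11 and CEMIP are low in both.

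Replicates 1 and 3 also differed from each other. The shRNF213 and shControl libraries that share a number were taken as a pair. The errors and p-values in this and the next paragraph therefore measure how evenly the difference appeared in the arms. They do not measure the spread between independent cultures. In the fit of arm and replicate number, edgeR's quasi-likelihood test called 1370 of 16254 genes (8.43%) between replicate 3 and replicate 1, 682 higher (4.20%) and 688 lower (4.23%), and 19 of them were also among the 297 genes called for replicate 2. In a fit of the 4 libraries of replicates 1 and 3 alone, again with the arm as covariate, 4797 of 16091 genes were called. The count was 90 without shControl replicate 1, 797 without shControl replicate 3, 871 without shRNF213 replicate 3, 4926 without shControl replicate 2 and 4854 without shRNF213 replicate 2. MMP1, an interstitial collagenase, had 35.5 and 25.8 CPM in replicate 3, against 216 and 256 CPM in replicate 1 (log2 -3.02 ± 0.37, SE, edgeR adjusted p = 0.00546). LINC02334, a long noncoding RNA, had 21.1 and 12.5 CPM, against 1.49 and 1.16 CPM (3.64 ± 0.21, adjusted p = 0.000495). FOSB, an immediate early transcription factor gene, had 7.70 and 9.22 CPM, against 28.4 and 116 CPM (-2.82 ± 0.33, adjusted p = 0.00507). In replicate 2 LINC02334 was at 0.613 and 0.319 CPM, below both.

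Some interferon genes were called in this contrast too. Of the 144 interferon genes tested, 18 were higher and 5 lower in replicate 3 than in replicate 1 (16% called, against 8.43% of all genes), with a median of 0.18. TRIM22, an antiviral TRIM ligase, had 9.30 and 13.8 CPM in replicate 3, against 5.81 and 4.72 CPM in replicate 1 (log2 1.11 ± 0.19, SE, edgeR adjusted p = 0.0154). IFIT1 had a difference of 0.96 ± 0.24 (edgeR adjusted p = 0.0440) and TNFSF10 one of 1.01 ± 0.25 (adjusted p = 0.0411). For these genes the replicate 2 differences were 2.90 to 3.78. The summed levels did not differ alike in the arms. The effector sum was 4133 CPM in shRNF213 replicate 3 against 4116 CPM in shRNF213 replicate 1, and 4962 CPM in shControl replicate 3 against 3685 CPM in shControl replicate 1. The sum over all interferon lists was 10527 against 10890 CPM in shRNF213, and 11799 against 10463 CPM in shControl.

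The same replicate number did not carry this state in the other lines. In YSCCC edgeR's quasi-likelihood test called 0 of 17691 genes (0%) between replicate 2 and replicates 1 and 3, with 570 at an unadjusted p under 0.05, 16 by DESeq2, 0 by limma-voom and 3384 with the replicate block. The effector sum was 3389 and 3370 CPM in YSCCC replicate 2, against 3249 to 3879 CPM. In KKU-100 the test called 0 of 15397 genes (0%), with 1536 at an unadjusted p under 0.05, 305 by DESeq2, 0 by limma-voom and 304 with the block. Leaving out shControl replicate 3 gave 214 calls there, leaving out shControl replicate 1 gave 30, and dropping the arm covariate gave 1. The effector sum was 17818 and 20381 CPM in KKU-100 replicate 2, against 17848 to 25803 CPM.

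KKU-100 thus held in all cultures a summed effector level of the size seen in HuCCT1 replicate 2, though levels were scaled within each line. Its ligand genes were highest in shControl replicate 1, where IFNL1 had 53.7 CPM and IFNB1 14.2 CPM. In KKU-100 replicate 2, IFNL1 had 2.06 and 5.33 CPM, against 2.98 to 53.7 CPM in its replicates 1 and 3. IFNB1 was at 0 in all 6 YSCCC libraries, and IFNL1 there stayed between 0.0816 and 0.314 CPM. The median log2 difference of the interferon genes for replicate 2 was -0.11 in YSCCC (134 genes tested) and -0.10 in KKU-100 (139 genes tested), with 5 and 6 of them at an unadjusted p under 0.05.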

How the data were processed

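Polyadenylated RNA was sequenced from 18 libraries, per the labels' protocols with a TruSeq mRNA kit from 750 ng of total RNA. The submitters' processing notes name build GRCh38, the aligner STAR 2.5.1b, HTSeq 0.6.1p1 and StringTie 2.1.6, and also DESeq2 1.34.0, Picard 1.139 and FastQC 0.11.9. Not stated are the step behind each column, filters and strandedness. As the file headers show, the authors deposited raw counts per gene for 36601 gene IDs and TPM; the TPM served only for levels between genes. No 2 libraries had identical counts.

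The members and the gene lists (11 interferon lists, 33 other programs and 5 sets of cell type markers) were chosen with earlier results of these data known. Counts were fitted per line with edgeR 4.0.16 under R 4.3.3: TMM factors, filterByExpr (minimum count 10, minimum total 15), the quasi-likelihood F test, and Benjamini-Hochberg adjustment over all genes tested, two-sided, at 0.05. The arm was the covariate. The procedure was tested on simulated counts in which libraries of the same number shared no deviation. That simulation cannot show how the tests behave with the shared deviations of these libraries. Alternatives used limma 3.58.1, DESeq2 1.42.0, other scalings, no filter, the replicate number as a block, and omission of single libraries. CPM use TMM-scaled totals.

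Replicate numbers come from the sample titles. Between the libraries that share a number, deviations from the arm means had correlations of 0.790, 0.717 and 0.766 for replicates 1 to 3 of HuCCT1, 0.816, 0.724 and 0.902 for YSCCC and 0.729, 0.596 and 0.400 for KKU-100, all above 0.1, so the numbers were taken to pair the libraries and counts with the replicate as a block are given beside the counts without it.

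Named genes were RNF213, all interferon ligands, receptors and JAK-STAT factors, up to 6 called members of each other interferon list and up to 4 of each other list, up to 20 genes per direction outside the interferon lists, and up to 5 per direction for replicate 3 against 1. Those up to 6 and up to 20 averaged 5 CPM or more and did not overlap between the groups, and all were ranked by absolute log2 difference. Some genes that this rule names are not reported here. Other names are marked or were chosen after their values were seen. At these depths, counting error limits the precision of genes with under 10 counts per library.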

Additional observations from a re-analysis of the deposited data

Results flagged for a closer look

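Some list sums of replicate 2 lay outside the range of replicates 1 and 3 of the same arm in both arms of HuCCT1, and outside it on the opposite side in both arms of another line. These differences between lines were not tested. They are given as the mean over arms of the log2 ratio of replicate 2 to the mean of replicates 1 and 3, HuCCT1 minus the other line. Against KKU-100 the difference was 3.91 for the interferon ligands, 1.02 for MHC class I and peptide loading, 0.93 for guanylate-binding proteins and IFN-gamma-type genes, 0.70 for epithelial junctions, 0.46 for complement components and regulators, 0.40 for ADAR and retroelement silencing genes and -0.37 for mesenchymal genes. In the ADAR list 4 of 15 tested members had a positive log2 difference in HuCCT1 replicate 2, at a median of -0.14, and ADAR itself had a log2 difference of 1.05. Against YSCCC the difference was 2.87 for the interferon ligands, a value that rests on levels near the limit of detection in YSCCC. The ligands summed to 0.204 and 0.244 CPM in YSCCC replicate 2, against 0.261 to 0.465 CPM, and to 4.62 and 9.92 CPM in KKU-100 replicate 2, against 7.32 to 86.4 CPM.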

How the results depend on the processing

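No named gene called in HuCCT1 changed direction under the settings run. For HuCCT1 replicate 2 against replicates 1 and 3, the count of called genes was 888 with DESeq2, 177 with no filter on low counts and 1963 with the replicate block, against 297 as reported. Leaving out libraries gave 0 to 2473 calls, the highest without both libraries of replicate 3, and 1896 without both of replicate 1. These 2 fits and the blocked fit called all 297 genes again. The difference between arms had 522 calls with the block and 0 under the other settings, and without a replicate 2 library it could not be fitted. Replicate 3 against replicate 1 had 4797 calls without the block, and 90 to 4926 with single libraries left out. YSCCC had 16 calls with DESeq2 and 3384 with the block. KKU-100 had 305 with DESeq2, 291 with no filter, 304 with the block and 1 without the arm covariate, and 0 to 214 with single libraries left out. The cause of these shifts was not tested. All genes called for replicate 2 were also called with the replicate block, which added calls in most lists.

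The log2 ratio of the summed interferon lists in HuCCT1, 1.46, was 1.37 on plain library totals, 1.62 without the 5 most abundant members and 1.22 as the median over members. It was 1.44 to 1.5 with single libraries left out. With 2 libraries against 4, and no label on how the replicate cultures were handled, the errors measure only the spread between these libraries. Genes near the filter, such as MT1G and the interferon ligands outside replicate 2, are limited by counting error.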
